A study of Mus musculus with 8 samples.

Results

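The genes that encode collagen chains were followed in mouse astrocytes grown in 2 kinds of culture and sampled at 2 times. A gene was taken as a collagen chain gene when its symbol had the form Col, a type number, the letter a and a chain number. Of 23401 genes in the deposited table of the whole series, 44 had such a symbol, and the 35 with a level of at least 1 TPM in at least 2 of the 8 libraries were kept. TPM gives transcripts relative to the total of a library and corrected for transcript length, so levels can be set side by side between genes. These 35 genes covered 21 collagen types, with 10 fibrillar, 6 basement membrane, 8 FACIT (fibril-associated with interrupted helices) and 3 type VI chain genes, and 8 of other kinds. The other 9 were Col13a1, which reached 1.02 TPM in 1 library, Col6a5, whose highest value was 0.931 TPM, and Col6a4, Col6a6, Col10a1, Col17a1, Col19a1, Col24a1 and Col28a1, all below 0.33 TPM in every library. Col15a1 and Col25a1, with at least 1 TPM in 2 libraries each, were just inside the limit.

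The cells are described only as mouse astrocytes, with no strain, genotype or age in the labels. Each of the 4 groups held 2 libraries of total RNA: astrocytes in MGS at day 5, astrocytes in conventional culture (CV) at day 5, and each culture again at day 32. The labels do not spell out MGS, and they describe its libraries as soft and the CV libraries as hard. They do not say whether the 2 libraries of a group came from separate cultures, so the spread behind the p-values is that between 2 libraries and may be technical. The comparisons ask how collagen chain expression in MGS differed from that in conventional culture at each time, and how it moved from day 5 to day 32 within a culture.

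Collagens are secreted proteins built from alpha chains wound into a triple helix. Fibrillar chains assemble into the tensile fibrils of connective tissue, type IV chains into the sheet-like network of basement membranes, FACIT chains sit on the surface of fibrils, and type VI chains form beaded filaments around cells. In the brain, fibrillar collagens are found mainly in the meninges and around large vessels, while type IV collagen lines the vessel walls and the glia limitans, where astrocyte endfeet meet the basement membrane. Many collagen mRNAs carry sites for the miR-29 family of microRNAs, known repressors of matrix genes, in their 3′ untranslated regions (3′ UTRs).

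The mature miR-29 sequences of RefSeq (GRCm38.p6) are shown because they define a feature that most of these genes share. Capitals mark the seed, bases 2 to 8, which is the same in the 3 members.
mmu-miR-29a-3p: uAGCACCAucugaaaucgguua
mmu-miR-29b-3p: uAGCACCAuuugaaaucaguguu
mmu-miR-29c-3p: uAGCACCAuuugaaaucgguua

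The match to that seed, TGGTGCT, was sought in the 3′ UTR of the longest coding transcript that GENCODE lists for a gene on the same build. At least 1 match was present in 24 of the 35 collagen chain genes (68.6%), against 15.3% of the 14069 genes tested that had a 3′ UTR. At least 2 matches were present in 11 (31.4%) against 2.52%, although the median 3′ UTR was about as long, 1110 bases against 1137. All 6 type IV genes held a match, as did 8 of 10 fibrillar, 3 of 8 FACIT, 2 of 3 type VI and 5 of 8 other genes. Matches in 5 genes whose levels are described in detail are printed with their surroundings, the match in capitals: Col3a1 (chr1:45348982-45348988, plus strand), Col5a2 (chr1:45374966-45374972, minus), Col4a1 (chr8:11199762-11199768, minus), the first in Col4a2 (chr8:11448359-11448365, plus) and the first in Col4a5 (chrX:141688253-141688259, plus).
Col3a1: aaatgtctcaaTGGTGCTataataaataaa
Col5a2: tcttttaatgaTGGTGCTaaaattatttct
Col4a1: ccgtcacaacaTGGTGCTactcccccccct
Col4a2: gaaggccacgtTGGTGCTtatccttctgta
Col4a5: gctcccaccaaTGGTGCTaatatcctctat

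A match is a description of the sequence, and mature miR-29 was not measured in these libraries. The printed genes included the neighbours Col3a1 and Col5a2, which differed between the cultures in opposite directions at day 5, and Col4a1 and Col4a5, which did likewise. Whether miR-29 had a part in any of these differences was not tested.

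Promoter windows of RefSeq, 250 bases before to 50 after a gene's start, existed for 26 of the 35 genes (29 windows). The motif GGGCGG, searched on both strands, was in 20 of the 29 windows (69.0%) against 35.7% of all 32851 windows, and CCAAT, also on both strands, in 11 (37.9%) against 37.4%. The windows of Col1a2 (chr6:4505368-4505667, plus strand) and Col3a1 (chr1:45311288-45311587, plus) are shown because these 2 fibrillar genes were among those with the widest gap between the cultures at day 5. Those of Col4a1 (chr8:11312777-11313076, minus) and Col4a2 (chr8:11312555-11312854, plus) are shown because this head-to-head pair shares 78 bases of promoter window. Capitals mark either motif on either strand, and no 2 matches overlap.
Col1a2: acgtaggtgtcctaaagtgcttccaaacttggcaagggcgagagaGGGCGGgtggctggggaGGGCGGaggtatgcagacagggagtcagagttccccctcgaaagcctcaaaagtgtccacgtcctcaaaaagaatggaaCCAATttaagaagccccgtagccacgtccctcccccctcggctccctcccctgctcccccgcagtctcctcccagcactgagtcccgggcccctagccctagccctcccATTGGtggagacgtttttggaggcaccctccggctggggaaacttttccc
Col3a1: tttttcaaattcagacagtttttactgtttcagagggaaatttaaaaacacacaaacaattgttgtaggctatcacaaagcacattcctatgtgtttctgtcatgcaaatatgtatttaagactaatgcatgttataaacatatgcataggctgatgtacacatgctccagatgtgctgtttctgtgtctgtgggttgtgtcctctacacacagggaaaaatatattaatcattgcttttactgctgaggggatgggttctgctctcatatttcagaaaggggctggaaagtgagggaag
Col4a1: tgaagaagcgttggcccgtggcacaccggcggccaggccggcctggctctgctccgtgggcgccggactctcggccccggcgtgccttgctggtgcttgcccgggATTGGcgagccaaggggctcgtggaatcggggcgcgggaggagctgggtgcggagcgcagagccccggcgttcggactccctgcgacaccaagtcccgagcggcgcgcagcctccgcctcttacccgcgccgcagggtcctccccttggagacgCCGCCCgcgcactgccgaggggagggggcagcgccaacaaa
Col4a2: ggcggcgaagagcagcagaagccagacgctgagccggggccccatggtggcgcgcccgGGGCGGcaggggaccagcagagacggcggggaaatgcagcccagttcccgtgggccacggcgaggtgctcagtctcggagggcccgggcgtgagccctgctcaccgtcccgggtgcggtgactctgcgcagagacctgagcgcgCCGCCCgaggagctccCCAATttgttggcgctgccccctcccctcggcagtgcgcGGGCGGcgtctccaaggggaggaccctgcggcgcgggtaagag

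The Col1a2 window held 2 matches to each motif, and the Col3a1 window held neither. The Col4a1 window held 1 match to each motif, and the Col4a2 window held 3 to the first and 1 to the second.

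Aligned sequence per library ranged from 2.15 to 4.69 gigabases. The replicates agreed least in CV at day 32, where the SD of the log2 difference between them was 0.465, against 0.191 to 0.321 in the other groups. In that group replicate 2 was above replicate 1 in 32 of the 35 collagen genes and in 76.8% of all genes. The median log2 difference was 0.56 in the collagen genes, against 0.32 over all genes. Gfap, the astrocyte intermediate filament gene, was present in all libraries, at 13723 and 13744 TPM in MGS at day 5, 9571 and 9605 in MGS at day 32, 1657 and 1539.8 in CV at day 5 and 696 and 812 in CV at day 32. Over all 14904 genes tested, the median log2 change between the cultures, MGS minus CV, was -0.14 at day 5 and 0.56 at day 32, so medians of collagen groups are also given relative to these values.

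Collagen chain mRNA was more abundant in MGS at both times. Together the 35 genes held 5017 and 5059 TPM in the MGS libraries of day 5, against 1527 and 1602 in CV, and 3341 and 3483 TPM in MGS at day 32, against 830.3 and 1367 in CV. The groups did not overlap at either time. As a share of all TPM this was 0.504% ± 0.00299 (SD, n = 2) in MGS and 0.156% ± 0.00528 in CV at day 5, and 0.341% ± 0.0101 and 0.110% ± 0.0380 at day 32. The fibrillar genes made up most of the gap, with 3119 ± 23.4 summed TPM against 837 ± 4.27 at day 5 and 1905 ± 60.7 against 512 ± 177 at day 32. Type VI genes made up 7.45% ± 0.0354 of collagen TPM in MGS and 2.71% ± 0.237 in CV at day 5, and 9.39% ± 0.0905 and 4.08% ± 0.116 at day 32.

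**Figure D1:**
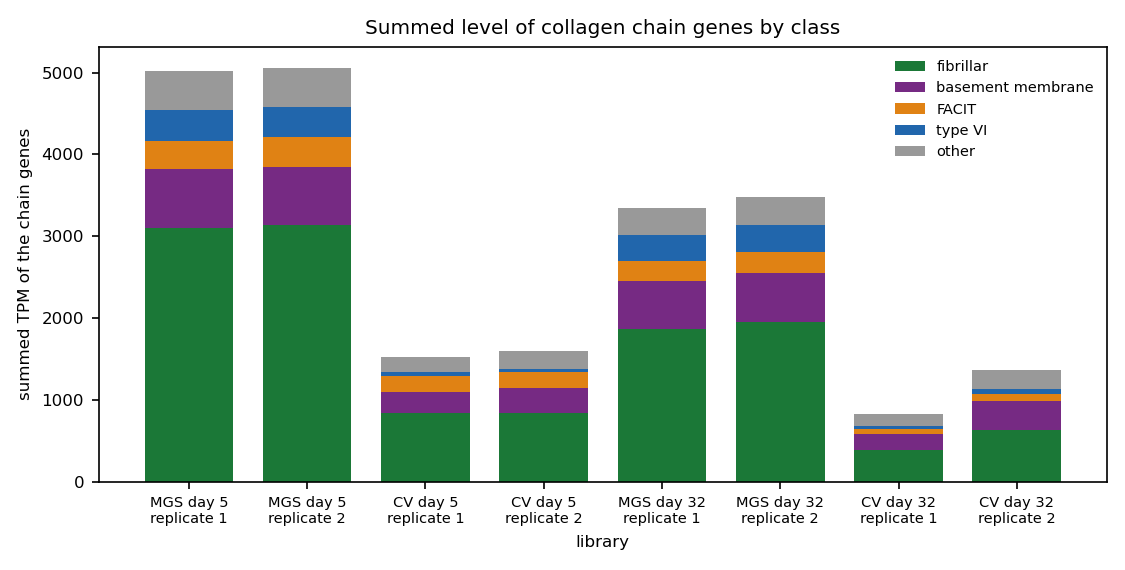
Summed TPM of the 35 collagen chain genes in each of the 8 libraries, stacked by class. The 2 MGS libraries of day 5 reach 5017 and 5059 TPM, the highest of the 8, and CV day 32 replicate 1 is the lowest at 830.3 TPM.

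The leading chains also differed. In all 4 MGS libraries the order was Col1a2, Col1a1, Col3a1, which together held 55.4% to 55.6% of collagen TPM at day 5 and 43.2% to 43.6% at day 32. Both CV libraries of day 5 were led by Col5a2, Col1a1 and Col4a5, and both CV libraries of day 32 by Col5a2, Col4a1 and Col1a1. Between 25 and 27 of the genes had at least 10 TPM in an MGS library, and between 19 and 21 in a CV library.

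Of the 35 genes, in MGS 22 were higher and 10 lower at day 5 at an adjusted p under 0.05 (limma, two-sided, Benjamini-Hochberg over 14904 genes). Among all genes tested, 22.5% were called higher and 26.4% lower. The median log2 change of the 35 was 1.32, and 1.46 relative to the median of all genes. At day 32, 30 were higher and 2 lower, where 52.8% of all genes were called higher and 14.8% lower. The median was then 1.48, and 0.93 relative to all genes. Counted without a model, the libraries of the cultures did not overlap in 22 genes that were higher and 12 that were lower in MGS at day 5 (34.4% and 49.2% of all genes), and in 31 and 2 at day 32 (63.6% and 20.9%). For any 1 gene, the exact permutation test of 2 against 2 libraries has a smallest two-sided p of 0.333, so the calls rest on the spread pooled over all genes and groups. Col20a1, Col15a1 and Col25a1 reached 1 TPM in MGS libraries alone, so the choice of genes favoured their calls. Without these 3 genes, 19 were higher and 10 lower at day 5, and 28 and 2 at day 32.

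**Figure D2:**
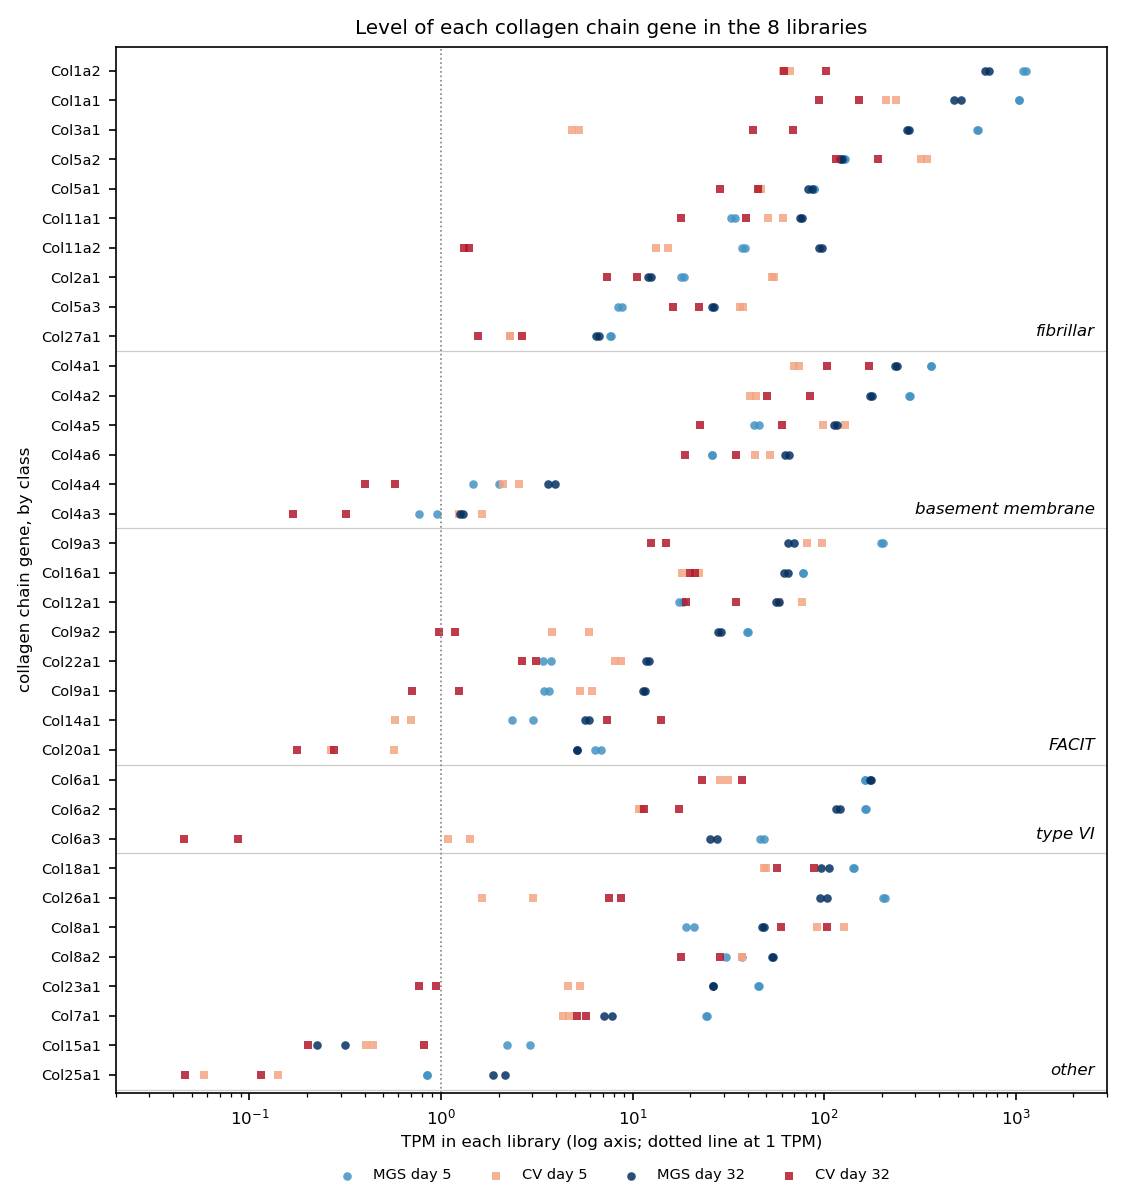
TPM of each collagen chain gene in each library on a log axis, by class, with circles for MGS and squares for CV, light for day 5 and dark for day 32. The dotted line marks the 1 TPM limit. Col3a1 lies between 4.81 and 5.28 TPM in CV at day 5 and between 632 and 640 in MGS, the widest such gap of the fibrillar genes.

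Transcript length moved with the day 32 contrast. Of the 35 genes, 29 fell in the longest of 4 equal classes of transcript length (median length 6048 nt over the 35, against 3318 nt over all genes tested; median GC content 56.1% against 49.8%), and that class had a median log2 change of -0.39 at day 5 and 1.18 at day 32. When each library was corrected for its trend with length and GC content, day 5 gave 22 higher and 9 lower, and day 32 gave 15 higher and 12 lower. The median log2 change of the 35 was then 1.34 at day 5 and 0.28 at day 32, against -0.03 and -0.05 over all genes. Of all 14904 genes, the corrected fit called 4572 higher and 4844 lower at day 5, and 4743 and 5619 at day 32. Day 32 calls of single genes are therefore given with the corrected value where the correction ended the call or turned the sign, and those of gene lists with the corrected counts. Length and the culture effect at day 32 cannot be told apart by this correction, since a true change of long genes would be removed too.

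**Figure D3:**
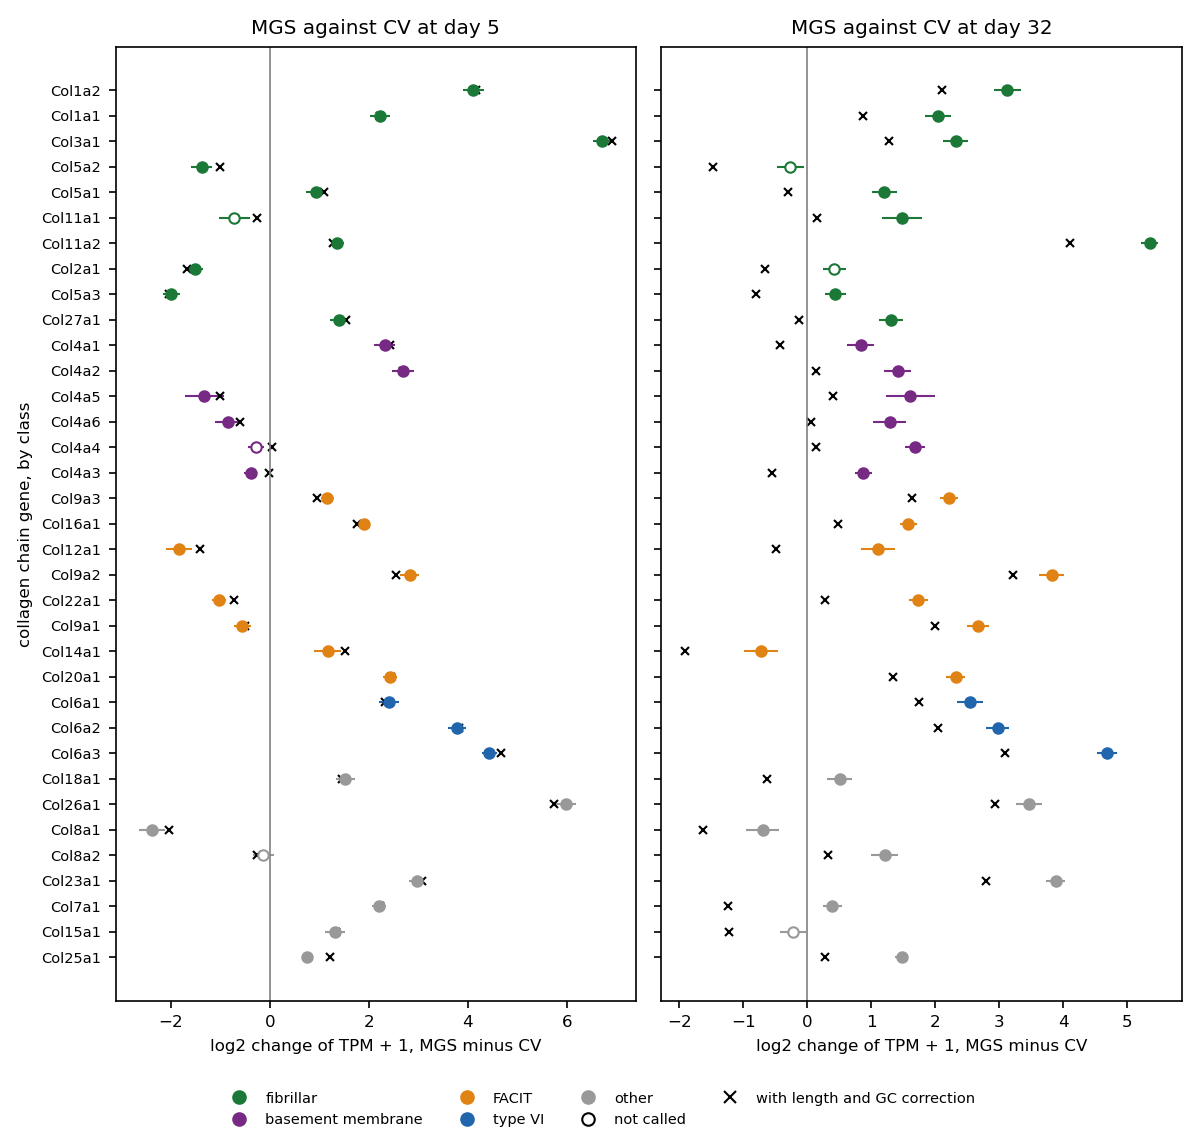
Log2 change of TPM + 1, MGS minus CV, for the 35 genes at day 5 (left) and day 32 (right). Circles with bars are estimates with their SE, open where not called, colours mark the class, and crosses mark the value after correction for length and GC content. At day 5 the crosses lie closer to the circles than at day 32, where they lie to the left. Larger shifts at day 5 include Col25a1, from 0.75 to 1.21, and Col4a3, from -0.39 to -0.02, which ended its call.

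Of the 10 fibrillar genes, in MGS 6 were higher and 3 lower at day 5, and 8 higher and none lower at day 32. Their median log2 change was 1.28 above that of all genes at day 5 and 0.84 above it at day 32. After correction for length and GC content, Col5a2, Col5a1, Col2a1 and Col5a3 were called lower at day 32, and Col11a1 and Col27a1 were not called. Bulk RNA cannot tell more cells of a type from more RNA per cell, and this holds for every gene here.

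Col1a2 and Col1a1 encode the chains of type I collagen, the main fibril-forming collagen. Col1a2 (chr6:4505697-4541543, plus strand, mm10) stood at 1096 and 1135 TPM in MGS and 60.8 and 66.8 in CV at day 5, and at 694 and 723 against 62.0 and 103 at day 32. The groups were apart at both times, 17.5-fold by the means at day 5 (log2 change 4.11, SE 0.21, adjusted p = 6.88e-06) and 8.60-fold at day 32 (log2 change 3.13, SE 0.21, adjusted p = 1.59e-05). Col1a1 (chr11:94936270-94951856, plus) stood at 1045 and 1045 TPM against 237 and 211 at day 5, and at 479.5 and 518 against 94.1 and 152 at day 32. It too did not overlap between cultures, with ratios of 4.66 (log2 change 2.22, SE 0.20, adjusted p = 0.000112) and 4.05 (log2 change 2.05, SE 0.20, adjusted p = 0.000114). At day 32 its log2 change was 0.88 after correction for length and GC content, and that of Col1a2 was 2.1.

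The mRNAs of the type I chains were not in the same proportion in the 2 cultures. As a protein, type I collagen is usually made of more alpha-1 than alpha-2 chains. Protein was not measured, so the mRNA ratios do not give the make-up of the collagen, and unequal transcript length can move them. The TPM ratio of Col1a1 to Col1a2 was 0.954 and 0.921 in MGS and 3.90 and 3.17 in CV at day 5, and 0.691 and 0.716 against 1.52 and 1.48 at day 32. Each CV library was above each MGS library of its day.

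Col3a1 (chr1:45311538-45349706, plus) encodes the chain of type III collagen, a partner of type I in soft connective tissue. Its level was 639.6 and 632 TPM in MGS and 5.28 and 4.81 in CV at day 5, and 269.8 and 277 against 42.5 and 68.6 at day 32. The MGS libraries were 126-fold higher at day 5 (log2 change 6.72, SE 0.20, adjusted p = 8.65e-07) and 4.93-fold at day 32 (log2 change 2.32, SE 0.20, adjusted p = 5.65e-05; 1.28 after correction for length and GC content). The gap narrowed, as Col3a1 was lower at day 32 than at day 5 in MGS (log2 change -1.21) and higher at day 32 in CV (3.19), and the difference between the days was itself called (interaction -4.40 (SE 0.29, adjusted p = 4.95e-05)).

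Col5a2 (chr1:45374331-45503282, minus), the next gene to Col3a1 with 24624 bases between their ends, encodes a type V chain, which nucleates and limits the width of type I fibrils. Its pattern was the opposite at day 5, with 128 and 127 TPM in MGS and 323 and 345 in CV (2.61-fold lower in MGS; log2 change -1.38, SE 0.21, adjusted p = 0.00143). At day 32 it had 122 and 124 TPM in MGS and 115 and 192 in CV, where the CV libraries lie on both sides of the MGS libraries, and no difference was called (log2 change -0.27, SE 0.21, adjusted p = 0.286). After correction for length and GC content, or scaling by the median of ratios, it was called lower in MGS at day 32 as well (log2 change -1.47 and -0.90). The TPM ratio of Col5a2 to Col3a1 was 0.200 and 0.201 in MGS at day 5, and 61.1 and 71.7 in CV.

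The other type V genes went in different directions at day 5. Col5a1, the common type V chain, had 88.3 and 88.9 TPM in MGS against 46.9 and 45.7 in CV (log2 change 0.92, SE 0.19, adjusted p = 0.00627). At day 32 the gene had 82.5 and 86.8 against 28.8 and 45.3 (log2 change 1.21, SE 0.19, adjusted p = 0.00123), and after correction for length and GC content it was called lower in MGS (-0.30). Col5a3, a less widely used type V chain, was lower in MGS at day 5, with 8.81 and 8.37 TPM against 37.9 and 36.3, a gap of 4.32-fold (log2 change -1.99, SE 0.17, adjusted p = 6.99e-05). By day 32 it had 25.9 and 26.7 TPM in MGS and 16.3 and 22.3 in CV (log2 change 0.44, SE 0.17, adjusted p = 0.0472). That call was lost under 13 alternatives, among them the leaving out of any library but CV day 32 replicate 2 (0.23 to 0.46), and the value was -0.17 with median-of-ratios scaling and -0.80 with the length and GC correction.

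Col11a1, Col11a2 and Col2a1 encode chains best known from cartilage fibrils. Col11a2 (chr17:34039437-34066242, plus) had 37.5 and 38.5 TPM in MGS and 15.3 and 13.2 in CV at day 5, and 94.0 and 97.7 against 1.32 and 1.41 at day 32. The cultures were 2.67-fold apart at day 5 (log2 change 1.36, SE 0.14, adjusted p = 0.000166) and 70.3-fold at day 32 (log2 change 5.36, SE 0.14, adjusted p = 7.06e-07; 4.11 after correction). The gap widened from both sides, with a log2 change from day 5 to day 32 of 1.31 in MGS and -2.69 in CV.

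Its partner chain gene Col11a1 moved otherwise, with 32.7 and 34.2 TPM in MGS and 50.8 and 60.9 in CV at day 5 (log2 change -0.72, SE 0.31, adjusted p = 0.0914, not called). At day 32 it had 76.5 and 74.8 against 17.8 and 38.9 (log2 change 1.48, SE 0.31, adjusted p = 0.0042; 0.15 and not called after correction). The libraries of the 2 cultures did not overlap at either time. Col2a1, the type II chain gene, was lower in MGS at day 5, with 18.5 and 17.9 TPM against 54.7 and 53.6 (2.98-fold; log2 change -1.52, SE 0.17, adjusted p = 0.000336). At day 32, with 12.1 and 12.4 against 7.39 and 10.6 TPM, the difference was not called (log2 change 0.43, SE 0.17, adjusted p = 0.0622; -0.67 and called lower after correction). Col27a1, a late member of the fibrillar family, ranged from 1.56 to 7.76 TPM and was higher in MGS at both times (log2 change 1.40 and 1.3), although at day 32 the corrected value was -0.13 and not called.

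The 6 type IV genes lie in 3 head-to-head pairs. Col4a1 and Col4a2, on chromosome 8 with 2 bases between the gene models, encode the chains of the basement membrane network found in nearly all tissues. Col4a6 and Col4a5 lie on the X chromosome, 1342 bases apart, and Col4a4 and Col4a3 on chromosome 1, 71 bases apart. The latter 4 encode chains of networks restricted to certain basement membranes. At day 5 the pairs parted: both genes of the Col4a1 pair were higher in MGS, and 3 of the other 4 genes were called lower.

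Col4a1 (chr8:11198423-11312826, minus) had 363 and 362 TPM in MGS and 69.7 and 74.3 in CV at day 5 (5.04-fold; log2 change 2.32, SE 0.21, adjusted p = 0.0001). At day 32 the gene had 235 and 241 against 103 and 171 TPM (log2 change 0.84, SE 0.21, adjusted p = 0.00942). This second call was lost with median-of-ratios scaling (0.20) and without MGS day 32 replicate 2 (0.82, adjusted p = 0.0521), and after the length and GC correction the gene was called lower in MGS (-0.43). Col4a2 (chr8:11312829-11449287, plus) had 283 and 277 TPM against 43.9 and 41.2 at day 5 (6.58-fold; log2 change 2.69, SE 0.21, adjusted p = 5.35e-05) and 174 and 177 against 50.3 and 84.4 at day 32 (log2 change 1.42, SE 0.21, adjusted p = 0.00091; 0.14 and not called after correction). Neither gene overlapped between the cultures at either time. The TPM ratio of Col4a1 to Col4a2 lay between 1.28 and 1.36 in the MGS libraries and between 1.59 and 2.05 in the CV libraries.

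Col4a5 (chrX:141475419-141689235, plus) was lower in MGS at day 5, with 43.2 and 46.0 TPM against 99.3 and 129 (2.56-fold; log2 change -1.32, SE 0.39, adjusted p = 0.0253). That call was lost when any of the 4 libraries of that day was left out (log2 change -1.51 to -1.14, adjusted p = 0.0553 to 0.139). At day 32 the order was turned, with 113 and 117 TPM in MGS and 22.4 and 60.1 in CV (log2 change 1.61, SE 0.39, adjusted p = 0.00794; 0.41 and not called after correction). Its neighbour Col4a6 (chrX:141165403-141474076, minus) had 25.9 and 26.1 against 43.6 and 52.0 TPM at day 5 (log2 change -0.85, SE 0.25, adjusted p = 0.0273; not called when any library was left out except those of CV day 32, at -0.97 to -0.73) and 62.3 and 65.2 against 18.8 and 34.5 at day 32 (log2 change 1.29, SE 0.25, adjusted p = 0.00322; 0.05 and not called after correction). Both genes of this pair showed the lower MGS values at day 5 and the higher MGS values at day 32, with no overlap of libraries. The interaction was called under all 16 alternatives run for Col4a5 (2.94 (SE 0.55, adjusted p = 0.00355)) and for Col4a6 (2.14 (SE 0.36, adjusted p = 0.00234)).

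Col4a3 and Col4a4 were scarce, from 0.169 to 1.64 and from 0.403 to 3.94 TPM. At day 5 Col4a3 was called lower in MGS (log2 change -0.39), which 10 alternatives did not call (5 of them without CV day 5 replicate 2 or an MGS library, -0.46 to -0.27), and Col4a4 was not called (-0.28). At day 32 both were higher in MGS (0.88 and 1.68), but after correction Col4a3 was called lower (-0.55) and Col4a4 was not called (0.14).

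**Figure D4:**
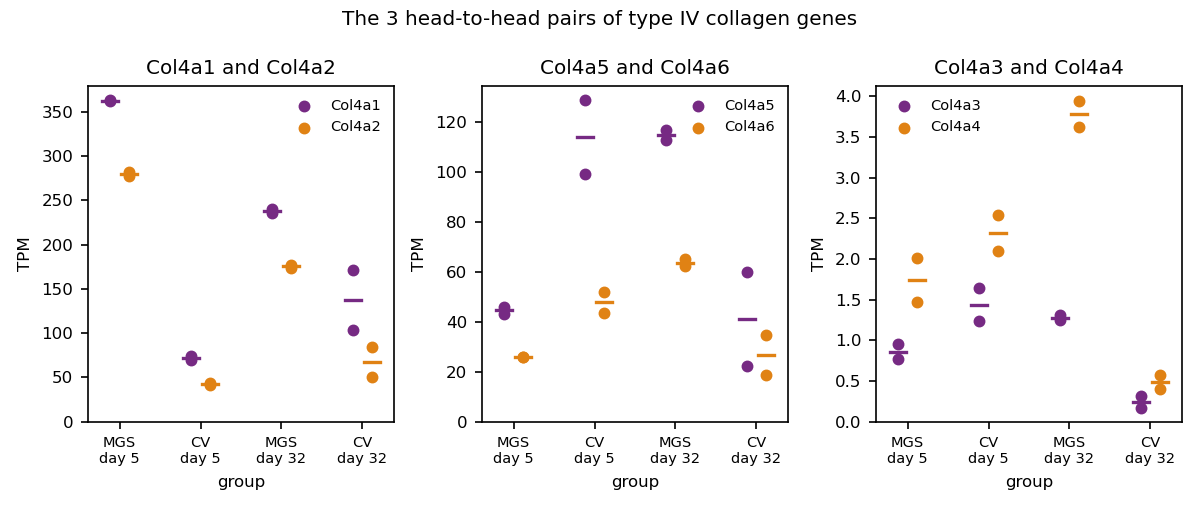
TPM of the 3 pairs of neighbouring type IV genes in each library (points) with the group mean (bar). Col4a1 and Col4a2 are highest in MGS at day 5, whereas Col4a5 and Col4a6 are lowest there or in CV at day 32.

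The ratio of Col4a1 to Col4a5 sets the mRNA of a gene of the Col4a1 pair beside that of a gene of the X chromosome pair. It was 8.39 and 7.89 in MGS and 0.703 and 0.576 in CV at day 5, and 2.09 and 2.06 against 4.60 and 2.85 at day 32. MGS was thus above CV at day 5 and below it at day 32, without overlap. As both genes of a ratio come from the same library, a common scaling does not move it, but unequal transcript length can.

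Among the 8 FACIT genes, 5 had higher and 3 had lower levels in MGS at day 5, and 7 higher and 1 lower at day 32. Relative to all genes, their median log2 change was 1.3 and 1.42. After correction for length and GC content, Col12a1 and Col14a1 were called lower at day 32, and Col22a1 was not called. The 3 type IX genes encode the chains of the FACIT that coats cartilage fibrils. Col9a3 had 198 and 204 TPM in MGS and 98.0 and 81.5 in CV at day 5 (log2 change 1.16, SE 0.13, adjusted p = 0.000348) and 65.0 and 69.7 against 14.9 and 12.6 at day 32 (log2 change 2.22, SE 0.13, adjusted p = 1e-05). Col9a2 had 39.7 and 39.9 against 5.94 and 3.79 TPM at day 5 (log2 change 2.82, SE 0.20, adjusted p = 3.01e-05) and 27.9 and 28.8 against 0.972 and 1.18 at day 32, a 26.4-fold gap (log2 change 3.82, SE 0.20, adjusted p = 5.26e-06). Both genes were higher in every MGS library than in any CV library of the same day, and at day 32 they stayed called after correction (1.64 and 3.21).

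Col9a1, the remaining type IX chain gene, differed from its partners at day 5, when it had 3.46 and 3.66 TPM in MGS and 5.30 and 6.14 in CV (log2 change -0.56, SE 0.17, adjusted p = 0.0332). That call was lost with a pseudocount of 0.1 and when any library was left out except those of CV day 32 (-0.65 to -0.47, adjusted p = 0.0559 to 0.159). By day 32 it had 11.3 and 11.6 against 0.707 and 1.25 TPM, 11.7-fold higher in MGS (log2 change 2.67, SE 0.17, adjusted p = 1.42e-05; 1.99 after correction). It was 1 of 2 collagen genes, with Col14a1, called in opposite directions on the 2 days under each of the 4 scalings compared.

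Col14a1 encodes a FACIT of tendon and skin fibrils. It was at 2.35 and 3.02 TPM in MGS and 0.578 and 0.701 in CV at day 5 (log2 change 1.16, SE 0.27, adjusted p = 0.00942; 1.03 and not called without MGS day 5 replicate 2). At day 32 it was at 5.93 and 5.62 against 7.38 and 14.0, the only FACIT gene lower in MGS (log2 change -0.73, SE 0.27, adjusted p = 0.0425). That call was lost under 9 alternatives, among them the leaving out of any library but CV day 32 replicate 1 (-0.76 to -0.31). The value was -1.91 after correction for length and GC content.

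Col12a1 and Col22a1, FACIT genes known from tendon and from muscle-tendon junctions, were lower in MGS at day 5 and higher at day 32. Col12a1 had 17.6 and 18.4 TPM against 58.3 and 76.6 at day 5 (log2 change -1.84, SE 0.26, adjusted p = 0.00105) and 55.9 and 58.2 against 19.1 and 34.9 at day 32 (log2 change 1.11, SE 0.26, adjusted p = 0.00759; -0.48 and called lower after correction). Col22a1 had 3.75 and 3.42 TPM against 8.07 and 8.68 at day 5 (log2 change -1.03, SE 0.15, adjusted p = 0.00106) and 12.1 and 11.7 against 2.66 and 3.13 at day 32 (log2 change 1.74, SE 0.15, adjusted p = 5.3e-05; 0.28 and not called after correction). For both, the lower values at day 5 were called under all alternatives run.

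Col16a1, a widely expressed FACIT gene, had 77.3 and 77.7 TPM in MGS and 22.2 and 18.2 in CV at day 5 (log2 change 1.90, SE 0.13, adjusted p = 2.66e-05) and 61.8 and 65.1 against 19.9 and 21.1 at day 32 (log2 change 1.58, SE 0.13, adjusted p = 4.34e-05; 0.49 after correction). Its groups were apart at both times. The interaction was not called on the TPM scale (-0.31, adjusted p = 0.173), but was called with FPKM (-0.80), median-of-ratios scaling (-1.12) and the length and GC correction (-1.28). Col20a1 was scarce in CV, at 0.176 to 0.569 TPM, and at 5.11 to 6.81 TPM in MGS, and was called higher in MGS at both times (log2 change 2.43 and 2.32). It passed the 1 TPM limit in the 4 MGS libraries alone, so these calls were favoured by the choice of genes.

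All 3 type VI genes were higher in MGS at both times, by a median log2 change of 3.93 and 2.42 relative to all genes. Type VI collagen needs an alpha-1, an alpha-2 and a larger chain, most often alpha-3. Col6a1 (chr10:76708792-76726044, minus) had 163 and 164 TPM in MGS and 31.7 and 28.5 in CV at day 5 (log2 change 2.40, SE 0.20, adjusted p = 7.29e-05) and 174 and 176 against 23.0 and 37.2 at day 32 (log2 change 2.54, SE 0.20, adjusted p = 3.69e-05). Col6a2 (chr10:76595756-76623404, minus) had 166 and 163 against 11.2 and 10.8 TPM at day 5 (log2 change 3.79, SE 0.18, adjusted p = 4.85e-06) and 116 and 121 against 11.5 and 17.4 at day 32 (log2 change 2.98, SE 0.18, adjusted p = 9.99e-06). The MGS libraries were all above the CV libraries for both genes.

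Col6a3 (chr1:90766860-90843971, minus) showed the widest type VI gap, with 46.6 and 48.5 TPM in MGS against 1.09 and 1.42 in CV at day 5 (log2 change 4.43, SE 0.15, adjusted p = 1.22e-06). At day 32 it had 25.5 and 27.5 TPM in MGS and 0.0875 and 0.0457 in CV (log2 change 4.69, SE 0.15, adjusted p = 9.46e-07). The CV values at day 32 were close to 0, so the log2(TPM + 1) scale understates that gap. After correction the type VI genes stayed called at day 32, at 1.75, 2.04 and 3.09 in the order above. The TPM ratio of Col6a1 to Col6a2 was 0.981 and 1.01 in MGS and 2.83 and 2.64 in CV at day 5, and 1.50 and 1.45 against 2.00 and 2.14 at day 32.

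The 8 other genes include network, anchoring, transmembrane and multiplexin chains, and in MGS 6 were higher and 1 lower at each time. Their median log2 change was 1.56 above that of all genes at day 5, but only 0.30 above it at day 32. After correction for length and GC content, Col18a1, Col8a1, Col7a1 and Col15a1 were called lower at day 32, and Col25a1 was not called. Col26a1 (chr5:136741764-136883107, minus), which encodes a secreted protein with collagen domains described in gonads, had 207 and 203 TPM in MGS and 3.01 and 1.63 in CV at day 5, an 88.5-fold gap (log2 change 5.99, SE 0.20, adjusted p = 1.19e-06). At day 32 the gene had 95.4 and 104 against 7.57 and 8.66 TPM (log2 change 3.47, SE 0.20, adjusted p = 8.63e-06; 2.93 after correction). The narrowing was called (interaction -2.52 (SE 0.29, adjusted p = 0.00047)). Col23a1, a transmembrane collagen gene, had 45.9 and 45.2 TPM against 4.62 and 5.29 at day 5 (log2 change 2.97, SE 0.15, adjusted p = 6.04e-06) and 26.4 and 26.3 against 0.768 and 0.945 at day 32 (log2 change 3.88, SE 0.15, adjusted p = 1.47e-06; 2.80 after correction).

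Col8a1 and Col8a2 encode the short chains of the hexagonal lattice in Descemet's membrane of the eye and in vessels. Col8a1 (chr16:57624256-57754737, minus) was lower in MGS at day 5, with 19.0 and 20.8 TPM against 91.5 and 127 (5.49-fold; log2 change -2.38, SE 0.26, adjusted p = 0.000263), the largest fall of the 35 genes. By day 32 it had 47.4 and 48.6 against 59.6 and 103 TPM (log2 change -0.70, SE 0.26, adjusted p = 0.0457), a call lost without CV day 32 replicate 2, either MGS library of day 5 or either of day 32 (-0.72 to -0.31), and at -1.63 after correction. Col8a2 did not follow it, with 30.9 and 37.5 TPM in MGS and 37.4 and 37.5 in CV at day 5, where the libraries overlapped (log2 change -0.13, SE 0.21, adjusted p = 0.624, not called), and 53.3 and 54.3 against 18.0 and 28.5 at day 32 (log2 change 1.21, SE 0.21, adjusted p = 0.00179; 0.33 after correction). The TPM ratio of Col8a1 to Col8a2 was 0.613 and 0.555 in MGS against 2.45 and 3.39 in CV at day 5, and 0.890 and 0.897 against 3.32 and 3.63 at day 32.

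Col18a1, whose product sits in basement membranes and releases endostatin, had 142 and 143 TPM in MGS and 49.5 and 48.5 in CV at day 5 (log2 change 1.52, SE 0.19, adjusted p = 0.00055). At day 32 it had 96.5 and 106 against 56.5 and 88.3 (log2 change 0.51, SE 0.19, adjusted p = 0.0479), a call lost under 13 alternatives, with 0.19 to 0.57 when any library but CV day 32 replicate 2 was left out, -0.12 under median-of-ratios scaling and -0.64 after correction. Col7a1, the anchoring fibril gene of skin, had 24.5 and 24.2 TPM against 4.68 and 4.35 at day 5 (log2 change 2.20, SE 0.15, adjusted p = 2.37e-05). At day 32 the gene had 7.07 and 7.83 against 5.15 and 5.74 (log2 change 0.39, SE 0.15, adjusted p = 0.0475), also lost under 13 alternatives, with 0.33 to 0.46 when any library but CV day 32 replicate 2 was left out, -0.16 under median-of-ratios scaling and -1.24 after correction.

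Col15a1, a relative of Col18a1 found in vessel and muscle basement membranes, had 2.92 and 2.22 TPM in MGS and 0.408 and 0.441 in CV at day 5 (log2 change 1.32, SE 0.20, adjusted p = 0.00133). At day 32, with 0.224 and 0.314 against 0.203 and 0.816, the groups were within 1 TPM of each other and no difference was called (log2 change -0.22, SE 0.20, adjusted p = 0.349). Col25a1, a transmembrane collagen gene of neurons, lay at 0.846 TPM in both MGS libraries of day 5 and reached 2.15 TPM in MGS at day 32, against 0.0463 to 0.141 TPM in CV. It was called higher in MGS at both times (log2 change 0.75 and 1.48; 0.28 and not called at day 32 after correction). Col15a1 passed the 1 TPM limit only in the MGS libraries of day 5 and Col25a1 only in those of day 32, so their calls in those groups were favoured by the choice of genes.

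From day 5 to day 32 in MGS, 13 of the 35 genes were higher at day 32 and 11 lower, against 35.0% and 7.53% of all genes. Their median log2 change was -0.57 relative to all genes. Col5a3 (log2 change 1.51, SE 0.17), Col12a1 (1.61), Col22a1 (1.50) and Col9a1 (1.45) were higher at day 32, and Col7a1 (-1.59), Col9a3 (-1.56), Col15a1 (-1.49), Col3a1 (-1.21) and Col1a1 (-1.07; -1.01 and not called without MGS day 32 replicate 1) were lower. Fewer genes were higher when MGS libraries were left out, 6 without MGS day 5 replicate 1 or MGS day 32 replicate 2, 7 without MGS day 5 replicate 2 and 8 without MGS day 32 replicate 1. Fewer of the lower genes were called in the same fits too, and calls over all genes also fell in them. With median-of-ratios scaling 20 collagen genes were lower, where 3402 of all 14904 genes were called higher and 3383 lower.

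From day 5 to day 32 in CV, 5 genes were higher and 18 lower, against 16.0% and 37.7% of all genes, and the median was -0.39 relative to all genes. The genes higher at day 32 were Col3a1 (3.19 (SE 0.20, adjusted p = 2.31e-05)), Col14a1 (2.78 (SE 0.27, adjusted p = 0.000181)), Col26a1 (1.49 (SE 0.20, adjusted p = 0.000981)), Col4a1 (0.88 (SE 0.21, adjusted p = 0.011); 0.83 and not called without CV day 5 replicate 1) and Col4a2 (0.60 (SE 0.21, adjusted p = 0.0462); 0.56 to 0.65 and not called when any library was left out except those of CV day 32). Among the lower genes were Col11a2 (-2.69), Col9a3 (-2.62), Col2a1 (-2.48), Col9a1 (-1.78) and Col23a1 (-1.68). After correction for length and GC content 15 genes were higher and 9 lower, against 4369 and 4413 of all 14904 genes. Without CV day 32 replicate 1, 9 genes were called higher.

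The culture difference itself changed between the days in 28 genes, with 18 positive and 10 negative interactions (49.7% and 12.3% of all genes). The share called positive was near that of all genes, and the median interaction of the 35 was 0.08 relative to all genes. The interaction uses the same libraries as the comparisons of the cultures and of the days, so it is no separate support for them. The positive group was led by Col11a2 (4.0 (SE 0.19, adjusted p = 1.69e-05)), Col9a1 (3.23 (SE 0.25, adjusted p = 9.53e-05)), Col12a1 (2.95 (SE 0.37, adjusted p = 0.000742)) and Col4a5 (2.94), and the negative group by Col3a1, Col26a1, Col14a1 (-1.89 (SE 0.38, adjusted p = 0.00463)) and Col7a1 (-1.81 (SE 0.21, adjusted p = 0.000501)). Of the fibril builders, Col1a1 (-0.17), Col5a1 (0.28) and Col27a1 (-0.09) had no called interaction on the TPM scale, but all 3 were called negative with median-of-ratios scaling (-1.0, -0.53 and -0.73) and with the length and GC correction (-1.35, -1.39 and -1.67). With FPKM, Col1a1 (-0.70) and Col27a1 (-0.43) were called negative and Col5a1 (-0.23) was not called. Without CV day 32 replicate 1 Col1a1 was called negative (-0.51), and without CV day 32 replicate 2 Col5a1 was called positive (0.60).

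The genes with a miR-29 seed match had a median log2 change of 0.84 at day 5, with 13 higher and 9 lower of 24. Those without had 1.52, with 9 higher and 1 lower of 11. At day 32 the medians were 1.45 and 2.32. No test was made of these splits.

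Genes that modify, process and bind collagen were counted from lists written with earlier results of these data known. Their counts are read against 22.5% of all genes called higher and 26.4% lower at day 5, and 52.8% and 14.8% at day 32. Each list's medians are log2 changes at day 5 and day 32 relative to those of all genes, and the corrected counts are those at day 32 after correction for length and GC content. The corrected counts are read against 4743 higher and 5619 lower of all 14904 genes in the corrected fit. Of 21 genes for folding and modification, in MGS 8 were higher and 6 lower at day 5, and 10 higher and 2 lower at day 32 (medians 0.15 and -0.48; corrected, 5 higher and 11 lower). At day 32 the share called higher was near that of all genes. P4ha2, a subunit of prolyl 4-hydroxylase, had 50.1 ± 2.16 TPM in MGS and 7.15 ± 0.290 in CV at day 5 (SD, n = 2; log2 change 2.65) and 43.2 ± 0.206 against 11.3 ± 0.476 at day 32 (1.85). Leprel1 (P3h2), a prolyl 3-hydroxylase known to act on type IV collagen, had 9.50 ± 0.438 TPM in MGS and 44.0 ± 4.13 in CV at day 5 (-2.10), and 48.1 ± 3.54 against 8.95 ± 6.90 at day 32 (2.50). Its order was thus turned between the days, also after correction (1.95 at day 32). The order of Col4a5 and Col4a6 was turned on the TPM scale too, but their day 32 calls were lost after correction. Col4a1 and Col4a2 were higher in MGS on both days on that scale (log2 change 2.32 and 2.69 at day 5, 0.84 and 1.42 at day 32). A relation between Leprel1 and the type IV genes was not tested.

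Of 14 genes for procollagen processing and crosslinking, 7 were higher and 4 lower at day 5, and 10 higher and none lower at day 32 (medians 0.39 and 0.06; corrected, 4 higher and 4 lower). Adamts2, which removes the N-terminal propeptide of fibrillar procollagens, had 16.9 ± 0.0559 TPM in MGS and 2.80 ± 0.0355 in CV at day 5 (log2 change 2.24), and 26.8 ± 2.32 against 0.977 ± 0.0348 at day 32 (3.81). Lox, the lysyl oxidase that starts crosslinking, had 199 ± 1.80 against 49.0 ± 11.3 TPM at day 5 (2.02) and 133 ± 6.25 against 23.9 ± 14.7 at day 32 (2.56). Pcolce, an enhancer of C-propeptide removal, had 355 ± 6.19 against 47.9 ± 2.29 TPM at day 5 (2.87), and Tgm2, a transglutaminase, 182 ± 1.52 against 8.42 ± 0.258 (4.28). At day 32 both gaps were narrower, with 199 ± 11.6 against 157 ± 0.985 TPM for Pcolce (0.33; -0.05 and not called after correction) and 55.2 ± 2.69 against 20.9 ± 6.43 for Tgm2 (1.39).

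Of 9 collagen receptor genes, 4 were higher and 2 lower at day 5, and 6 higher and 2 lower at day 32 (medians 0.60 and 1.10; corrected, 5 higher and 3 lower). Mrc2, an endocytic collagen receptor, had 129 ± 2.55 TPM in MGS against 12.5 ± 1.19 in CV at day 5 (log2 change 3.27) and 118 ± 5.52 against 18.0 ± 4.78 at day 32 (2.68). Itga1, an integrin subunit that binds type IV collagen, was lower in MGS at day 5, at 5.44 ± 0.150 against 16.3 ± 3.75 TPM (-1.41). By day 32 Itga1 had 18.1 ± 0.999 against 11.4 ± 5.01 TPM and was not called (0.68, adjusted p = 0.0669; -0.79 and called lower after correction), and the interaction was called (2.09). Lair1, an inhibitory receptor of immune cells, was higher in MGS at day 5, at 2.1 ± 0.217 against 0.494 ± 0.175 TPM (1.05), and lower at day 32, at 2.49 ± 0.0841 against 17.7 ± 4.17 TPM (-2.40).

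Of 14 basement membrane partners of type IV collagen, 5 were higher and 3 lower at day 5, and 12 higher and 1 lower at day 32 (medians 0.21 and 0.66; corrected, 4 higher and 6 lower). The laminin chain gene Lama4 had 93.1 ± 1.56 TPM in MGS and 12 ± 1.65 in CV at day 5 (log2 change 2.86) and 66.3 ± 2.66 against 9.40 ± 2.70 at day 32 (2.72). Lama5, another laminin alpha chain, was lower in MGS at day 5, at 15.4 ± 0.458 against 55.2 ± 0.731 TPM (-1.77). On day 32 Lama5 was higher, at 61.9 ± 6.61 against 25.7 ± 7.64 TPM (1.26; -0.51 and called lower after correction). The heparan sulphate proteoglycan gene Agrn had 145 ± 3.4 against 137 ± 4.20 TPM at day 5 (0.08, not called) and 217 ± 14.8 against 46.4 ± 14.1 TPM at day 32 (2.23).

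Of 15 genes of fibril-associated matrix, 7 were higher and 4 lower at day 5, and 10 higher and 3 lower at day 32 (medians 0.70 and 0.71; corrected, 7 higher and 6 lower). Dcn, whose proteoglycan binds collagen fibrils, had 843 ± 10.2 TPM in MGS and 4.42 ± 1.53 in CV at day 5 (log2 change 7.31) and 564 ± 28.3 against 16.9 ± 6.35 at day 32 (5.03). Tnc, a matrix glycoprotein of reactive tissue, was lower in MGS at day 5, at 64.8 ± 2.14 against 778 ± 70.8 TPM (-3.56), and at day 32, at 103 ± 2.59 against 227 ± 82.6 TPM (-1.08). Of 13 collagen-cleaving proteases and their inhibitors, 6 were higher and 4 lower at day 5, and 9 higher and 2 lower at day 32 (medians 0.47 and 0.76; corrected, 7 higher and 4 lower). The shares called lower were near those of all genes at both times. Ctsk, a protease that cuts within the helix, had 139 ± 9.19 against 3.46 ± 1.09 TPM at day 5 (4.99) and 63.0 ± 4.05 against 12.3 ± 0.0924 at day 32 (2.27).

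Markers of other cells that make collagen also differed between the cultures. Of 21 meningeal fibroblast markers tested, in MGS 19 were higher and 2 lower at day 5, and 18 higher and 3 lower at day 32 (medians 5.43 and 3.39; corrected, 18 and 3). Dcn, Lum and Ogn are on this list and on that of fibril-associated matrix. All 22 listed markers summed to 12739 to 14526 TPM in MGS and 10216 to 15185 in CV at day 5, where the groups overlapped, and to 15062 to 15180 against 10534 to 13443 at day 32. Igfbp2 was lower in every MGS library than in any CV library and made up most of the CV sums, with 9887 and 14859.5 TPM in CV at day 5. Without it, the 21 remaining markers held 10859.5 to 12749.8 TPM in MGS and 325 to 329 in CV at day 5, and 13519 to 13574 against 464 to 556 at day 32. Most of the MGS sum was then Ptgds, at 6521 and 8262 TPM at day 5, and without Ptgds too the sums were 4338 to 4488 against 281 to 289 TPM at day 5, and 3027 to 3038 against 394 to 504 at day 32. In CV, Slc6a20a and Dpep1 were at 0 in both libraries at day 5, and Dpep1 at day 32, and no listed marker was at 0 in MGS.

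Of 8 mural cell markers tested, 5 were higher and 1 lower at day 5, and 7 higher and 1 lower at day 32 (medians 1.45 and 0.81; corrected, 5 and 1). Their 12 listed genes summed to 275 to 286 TPM in MGS and 132 to 133 in CV at day 5, and 169.7 to 182 against 60.2 to 89.0 at day 32. Kcnj8, Abcc9 and Higd1b were at 0 in CV at day 32, and Higd1b in CV at day 5 and in MGS at day 32. The 12 endothelial markers, 8 higher and 1 lower at day 5 and 5 higher and none lower at day 32 (medians 1.55 and -0.38; corrected, 3 and 4), summed to 242 to 246 TPM in MGS and 53.0 to 67.0 in CV at day 5, and to 197 to 212 against 68.0 to 115 at day 32. Tie1 was at 0 in CV at both times, and Cldn5 in CV at day 32. In MGS at day 32 these genes were near 0 too, Tie1 at 0.0593 and 0 TPM and Cldn5 at 0.0549 and 0.111, as was Pecam1 at 0.0707 and 0.0718. Cdh5 alone held 119 and 135 TPM of the MGS sums of day 32, against 6.76 and 14.4 in CV.

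Microglia and macrophage markers, none of them typical collagen producers, went the other way at day 32, with 15 of 16 higher in MGS at day 5 but 2 higher and 13 lower at day 32 (medians 2.41 and -3.39; corrected, 1 and 14). They summed to 1183 to 1203 TPM in MGS and 68.3 to 69.5 in CV at day 5, and to 1472 to 1489 against 16918 to 18037 at day 32, and Lyve1 was at 0 in CV at day 5. The 10 astrocyte markers, 6 higher and 1 lower at day 5 and 9 higher and 1 lower at day 32 (medians 0.81 and 2.74; corrected, 9 and 1), summed to 17010.5 to 17214 TPM in MGS against 3499.7 to 3692 in CV at day 5, and to 13944 to 13969 against 1473 to 1891 at day 32, with none at 0. The part of other cells in the collagen differences was not tested.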

How the data were processed

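RNA was sequenced from mouse astrocytes in 2 cultures at days 5 and 32, with 4 groups of 2 libraries, as their titles give them. TRIzol extraction and a directional NEB Ultra II kit were used, per the labels' protocols. The submitters' processing notes name StringTie 1.3.4d, HISAT2 2.1.0 and bcl2fastq, and the builds mm10 and hg38 with no role. The annotation release, filters and use of strand are not given in the sources used here, so overlapping and antisense genes are uncertain. The authors deposited TPM, FPKM and coverage for each gene row of each library, per the file headers, and a TPM table of the whole series. FPKM as deposited was used only in an alternative, and coverage as deposited only for the aligned bases per library. Read counts were not recovered, and errors come from the spread between replicates.

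Rows of 1 gene ID were summed, and the collagen values equalled those of the table of the whole series. Genes with at least 1 TPM in at least 2 of 8 libraries (14904) were taken as log2(TPM + 1). Fold changes on that scale understate the change of low genes. A model of 4 group means was fitted to all libraries at once with limma 3.58.1 under R 4.3.3 (4 residual and a median of 3.30 prior degrees of freedom, variance trend, two-sided, Benjamini-Hochberg over all genes, called at an adjusted p under 0.05). The fit was tested on simulated data with independent noise, where a gene had the same spread in all groups. Those data did not hold the wider spread of CV at day 32, so the test does not cover it. Alternatives were a pseudocount of 0.1, no filter, median-of-ratios scaling, FPKM, the table of the whole series, a loess correction for transcript length and GC content, a replicate block with and without that correction, and leaving out each library. Leaving out both CV libraries of day 32, and the length and GC correction of the gene lists, were added after seeing the data.

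Members and gene lists were chosen with earlier results of these data known. Values per library are given for genes with a mean of at least 10 TPM and for genes against the majority of their class, and up to 4 called genes per list could be named. Gene positions are as deposited, in mm10. Lengths, GC content and 3′ UTRs came from GENCODE and promoters and miRNAs from RefSeq, both on GRCm38. The 6 symbols P3h1 to P3h4, Colgalt1 and Colgalt2 were matched through RefSeq synonyms.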

Additional observations from a re-analysis of the deposited data

Results flagged for a closer look

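The difference between the cultures was itself different at the 2 times in 28 of the 35 collagen chain genes by the interaction term of the fit (limma, adjusted p under 0.05). Of all genes tested, 49.7% had a positive and 12.3% a negative called interaction, so the positive share of the collagen genes was near that of all genes. Values are the log2 difference between MGS and CV at day 32 minus that at day 5. Among the fibrillar genes it was -0.98 for Col1a2, -4.40 for Col3a1, 1.11 for Col5a2, 2.20 for Col11a1, 4.0 for Col11a2, 1.95 for Col2a1 and 2.43 for Col5a3. In the type IV genes the values were -1.48 for Col4a1, -1.27 for Col4a2, 1.26 for Col4a3, 1.97 for Col4a4, 2.94 for Col4a5 and 2.14 for Col4a6. The FACIT genes gave 1.06 for Col9a3, 2.95 for Col12a1, 1.00 for Col9a2, 2.77 for Col22a1, 3.23 for Col9a1 and -1.89 for Col14a1. Of the type VI genes, Col6a2 gave -0.81. The other genes gave -1.01 for Col18a1, -2.52 for Col26a1, 1.68 for Col8a1, 1.34 for Col8a2, 0.92 for Col23a1, -1.81 for Col7a1, -1.54 for Col15a1 and 0.73 for Col25a1. Over all genes tested the median interaction was 0.65. Of these interactions, 10 of the 18 positive and 7 of the 10 negative values were called in every alternative run.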

How the results depend on the processing

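Of the genes called at day 5, 21 of 22 higher and 6 of 10 lower genes were called in every alternative run, and at day 32, 15 of 30 higher and 0 of 2 lower genes. Within MGS this held for 5 of 13 higher and 4 of 11 lower genes, and within CV for 3 of 5 and 8 of 18. With the length and GC correction, at day 32 MGS was higher in 15 genes and lower in 12, 8 were higher and 21 lower with time in MGS, 15 higher and 9 lower with time in CV, and 19 interactions were negative. Of all 14904 genes, that correction gave 3394 higher and 3688 lower with time in MGS, and 4373 negative interactions. Median-of-ratios scaling gave 20 lower genes with time in MGS, 9 higher with time in CV and 16 negative interactions, and FPKM gave 18 and 9 for the first 2 of these. Of all 14904 genes, that scaling gave 3383, 4069 and 4713 in the same order, and FPKM gave 2289 and 3498. At day 32, 1 gene was lower with a pseudocount of 0.1 and 0 without the filter (limma). Leaving out each library gave 6 to 11 lower genes at day 5, 0 to 4 lower at day 32, 6 to 13 higher and 4 to 16 lower with time in MGS, and 3 to 9 higher with time in CV. The number of calls over all genes moved in these fits as well. Without both CV libraries of day 32, day 5 gave 22 higher and 11 lower, against 4150 and 5941 of all 14904 genes. With the length and GC correction these log2 values changed sign. At day 32 they were Col5a1 -0.30, Col2a1 -0.67, Col5a3 -0.80, Col27a1 -0.13, Col4a1 -0.43, Col4a3 -0.55, Col12a1 -0.48, Col18a1 -0.64 and Col7a1 -1.24. With time in MGS they were Col4a4 -0.13, Col4a3 -0.60 and Col25a1 -0.16, and with time in CV Col5a1 0.58, Col27a1 0.79, Col6a1 0.39 and Col25a1 0.77. For the interaction they were Col5a2 -0.47, Col5a1 -1.39, Col4a3 -0.52, Col6a1 -0.58, Col6a3 -1.58, Col23a1 -0.27 and Col25a1 -0.93. Median-of-ratios scaling turned Col5a3 (-0.17), Col18a1 (-0.12) and Col7a1 (-0.16) at day 32 and the interactions of Col5a1 (-0.53) and Col6a1 (-0.68), FPKM turned the interaction of Col6a3 (-0.45), and leaving out 1 CV library of day 32 gave Col6a1 with time in CV from -0.37 to 0.30. These are sign changes of values called in at least 1 of the compared fits. Among values called in neither, 8 changed sign with median-of-ratios scaling (-0.33 to 0.35), among them Col2a1 at day 32 (-0.15) and the interaction of Col6a3 (-0.25), 6 with FPKM (-0.37 to 0.22), among them the interactions of Col5a1 (-0.23) and Col6a1 (-0.37), 4 with the length and GC correction (-0.19 to 0.37), 1 with a pseudocount of 0.1 (0.26), and 1 to 7 each when 1 of 5 libraries was left out (-0.24 to 0.17). The cause of these changes was not tested. The replicate numbers share only a number: deviations of same-numbered libraries correlated across genes with r from -0.13 to 0.44. With the replicate block, calls numbered 22 higher and 11 lower at day 5, and 28 and 2 at day 32. Over all genes they numbered 3475 and 4419, and 8159 and 2281. The block joined to the length and GC correction changed the same signs, with the same values, and gave 15 and 12 at day 32, 9 and 21 with time in MGS, 15 and 10 with time in CV, and 19 negative interactions. Of all 14904 genes, this joined fit gave 4836 and 5679, 3482 and 3832, 4495 and 4531, and 4484 negative interactions. TPM keeps no depth, so no counting error could be given, and 2 libraries per group limit the precision.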
